A study of Mus musculus with 6 samples.

Results

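The genes described here are those that license and fire DNA replication origins, unwind and copy DNA, supply its nucleotides and drive cells from G1 into S phase, measured in mouse embryonic cortex with and without the Hippo kinases Lats1 and Lats2. A list of 49 gene symbols was looked up in the annotation of the array, only rows with exactly 1 symbol were accepted, and where a member had more than 1 such row (4 members) its brightest row on average was taken. This gave 47 members of the 22180 genes with a row of their own. The other members, Rfc4 and Ccne2, were matched only by rows shared with the genes Eif4a2 and Ints8, so they have no value here. Total RNA came from the dissected cortex of embryos at E12.5 of gestation, 1 embryo and 1 Affymetrix whole-transcript array per sample. The DKO (double knock-out) group, 3 embryos, carried loxP-flanked Lats1 and Lats2 alleles and the Nestin-Cre transgene. The control group held 3 embryos that the labels call only control, without stating which alleles or Cre they carried. Nestin-Cre recombines in neural progenitors and their descendants. A dissected cortex also holds vessels, blood and meninges, and recombination in those cells was not measured here.

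DNA replication is prepared in G1, when the origin recognition complex (ORC) together with Cdc6 and Cdt1 loads the Mcm2-7 ring onto origins, and it starts in S phase when Cdc45 and the GINS complex turn that ring into an active helicase. Many of these genes are transcribed under E2F factors, which are held back by the retinoblastoma protein until cyclin D and cyclin E kinases phosphorylate it. At this stage most cells of the cortical wall are cycling progenitors, and neurons, which have left the cycle, do not replicate. YAP and TAZ, the coactivators that Lats1 and Lats2 restrain, are known to promote proliferation in many tissues, and the comparison asks how far the replication genes followed the loss of both kinases.

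A feature that many members share is an E2F word near the start of transcription. The words themselves were not used to choose the members. Many genes of this kind are transcribed under E2F factors, however, so the choice of the list favoured such words. RefSeq promoter windows of build GRCm38.p6, from 250 bases before to 50 bases after each start, were available for 40 of the 49 symbols, and were searched on both strands for TTTCCCGC, TTTCGCGC, TTTGCCGC and TTTGGCGC. At least 1 of these words was found for 17 of the 40 genes (42.5%), against 704 of all 27025 genes with a window (2.60%). Those genes were not matched to the members for level or base composition. Per window, 17 of 50 held one (34.0%), against 744 of 32851 in all (2.26%). The TTTGGCGC and TTTCGCGC words can overlap each other on opposite strands, as they do upstream of Mcm6. By role the words were found for 4 of 8 licensing genes, 5 of 8 helicase genes, 2 of 4 polymerase and primase genes, 2 of 7 clamp, loader and joining genes, 0 of 5 nucleotide supply genes and 3 of 6 G1/S regulators. The last 120 bases before the start are shown for 5 of the genes, chosen after the values were seen because their words lie close upstream and their differences ran both ways. Capitals mark the E2F words, and each sequence runs 5′ to 3′ on the strand of its gene:
Orc1, chr4:108579334-108579453, plus strand: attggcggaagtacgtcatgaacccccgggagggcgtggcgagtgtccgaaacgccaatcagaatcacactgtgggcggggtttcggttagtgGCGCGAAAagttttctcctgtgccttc
Mcm6, chr1:128359706-128359825, minus strand: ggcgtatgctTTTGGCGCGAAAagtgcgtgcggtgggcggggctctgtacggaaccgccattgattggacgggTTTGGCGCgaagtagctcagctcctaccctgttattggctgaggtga
Gins3, chr8:95633439-95633558, plus strand: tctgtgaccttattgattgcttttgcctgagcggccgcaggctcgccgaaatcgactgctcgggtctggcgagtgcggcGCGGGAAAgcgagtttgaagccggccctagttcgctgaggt
Rfc3, chr5:151651209-151651328, minus strand: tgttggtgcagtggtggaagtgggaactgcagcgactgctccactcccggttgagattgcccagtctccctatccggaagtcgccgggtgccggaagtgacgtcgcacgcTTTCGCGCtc
E2f3, chr13:29986064-29986183, minus strand: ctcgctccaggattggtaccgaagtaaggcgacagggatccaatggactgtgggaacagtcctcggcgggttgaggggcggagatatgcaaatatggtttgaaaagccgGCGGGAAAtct
E2f3 has a second annotated start, and the 120 bases before it, chr13:29984392-29984511, hold 0 such words and are not shown. Other words were counted in the same windows. CCAAT, the box bound by NF-Y, was found for 25 of the 40 genes (62.5%) and 41.1% of all genes. TTTGAA, the cell cycle homology region of mitotic promoters, was found for 7 of them (17.5%) and 20.2% of all genes. GGAATG, the word bound by the TEAD partners of YAP and TAZ, was found for 3 of them (7.50%) and 16.6% of all genes. These matches describe letters and do not show binding.

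The arrays were checked before the members were read. Lats1 lay at 7.82, 7.82 and 7.74 in the DKO arrays, against 8.81, 8.34 and 8.98 in the control arrays, a log2 difference of -0.91 ± 0.14 (SE), and it fell in limma (adjusted p 0.0189), while Lats2 was not lower in DKO (0.24 ± 0.096 (SE), adjusted p 0.285). The sources used here do not place the probes relative to the deleted parts of either gene. Ccn1 and Ccn2, matrix genes known as targets of YAP, rose by 1.91 and 1.71 on the log2 scale (adjusted p 2.53e-04 and 2.76e-04). All 16724 genes that passed a limit on dim rows (a mean log2 level of 5.02) entered one fit, in which 228 rose (1.36%) and 60 fell (0.359%), counts that lay between 121 and 260 and between 11 and 54 when 1 array was left out. Xist and 3 Y-linked genes showed that DKO 1, DKO 2 and control 2 came from male embryos and DKO 3, control 1 and control 3 from female ones, so that sex was unequal between the groups. Of the progenitor markers Sox2, Pax6, Nes, Emx1, Emx2, Lhx2, Hes1, Hes5, Fabp7, Vim and Sox1 all 11 passed the dim limit. Hes5, a Notch target, fell by 0.90 on the log2 scale (limma adjusted p 0.00197), and the other 10 were not called. In the DKO arrays 5 of the 11 (45.5%) lay wholly below the controls (Emx1, Emx2, Lhx2, Sox1 and Hes5), against 13.4% of all genes tested. Another 3 (27.3%) lay wholly above (Nes, Hes1 and Vim), against 8.22% of all genes. At an unadjusted p under 0.05 there were 8 (72.7%), against 15.6% of all genes, and the median was -0.067. All 9 intermediate progenitor markers and all 12 neuron markers had lower DKO means, with medians of -0.44 and -0.23. All 13 hem and choroid plexus markers had higher ones, with a median of 0.39. In limma 4 of the intermediate progenitor markers fell, 0 neuron markers were called and 2 hem and choroid plexus markers rose. The DKO arrays lay wholly below the controls for all 9 intermediate progenitor markers and for 8 neuron markers (66.7%), against 13.4% of all genes. They lay wholly above for 6 hem and choroid plexus markers (46.2%), against 8.22% of all genes. The DKO means of all 8 tested ventral telencephalon markers (median -0.20) and all 12 endothelial and pericyte markers (median -0.23) were lower too, with 0 called in either list and 3 in each at an unadjusted p under 0.05. The summed level of the intermediate progenitor markers lay between 11.48 and 11.70 (log2) in DKO arrays, against 11.96 to 12.17 in control arrays. That of the neuron markers lay between 13.40 and 13.54 in DKO arrays, against 13.63 to 13.74 in control arrays. The summed hem and choroid plexus level spanned 10.42 to 11.35 in DKO and 9.86 to 10.21 in control arrays. Their part in the results below was not tested.

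None of the 47 replication and G1/S genes rose or fell in the DKO cortex. Their log2 differences, DKO minus control, ran from -0.28 (E2f2) to 0.21 (Orc1), and the median size was 0.055, or 0.080 over all genes tested. The members were brighter, with a median log2 level of 9.01 against 7.11 over all genes tested, and sizes were not compared at matched levels. Orc1 had the lowest mean level of the members, 6.72, and E2f2 lay at 6.84. The smallest limma adjusted p of a member was 0.200, with Benjamini-Hochberg adjustment over all 16724 genes, of which 1.72% were past the threshold of 0.05. At an unadjusted p under 0.05 there were 3 members, Orc1 above and E2f1 and E2f2 below control, or 6.38%, where 15.6% of all genes lay. The median difference was -0.022 over the members and -0.028 over all genes. Of the 47 members 30 had a lower DKO mean and 17 (36.2%) a higher one, near the 39.8% of all genes tested with a higher one. That split was 28 higher, with a median of 0.029, without DKO 2, and 22 higher when arrays were centred on their medians. In bulk tissue fewer cells of a type and less RNA per cell cannot be told apart, and because RMA equalises the probe signals of the arrays by quantiles, a change shared by all transcripts would be largely removed.

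The intervals show how large a difference the 6 arrays leave room for. The 95% confidence interval of 41 of the 47 members (87.2%) lay wholly within 1.25-fold in either direction, as did 68.5% of the intervals of all genes. All 47 lay within 1.5-fold, against 95.7% of all genes. These shares were not matched for level, and the median standard error was 0.070 over the members and 0.077 over all genes. The exceptions at 1.25-fold were Orc1, Gmnn, Gins3, Tyms, Ccne1 and E2f2. Each interval covers 1 gene and was not widened for the number of genes. At the standard errors of the members, from 0.057 to 0.12 with a median of 0.070, a difference had to reach 0.29 to 0.61, and 0.35 at the median, to pass the test over all genes. These sizes are cut-offs on the observed difference, so with 3 arrays a group true shifts of that size, or somewhat larger, could also be missed. An adjusted p above the threshold does not show that levels were equal.

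**Figure D1:**
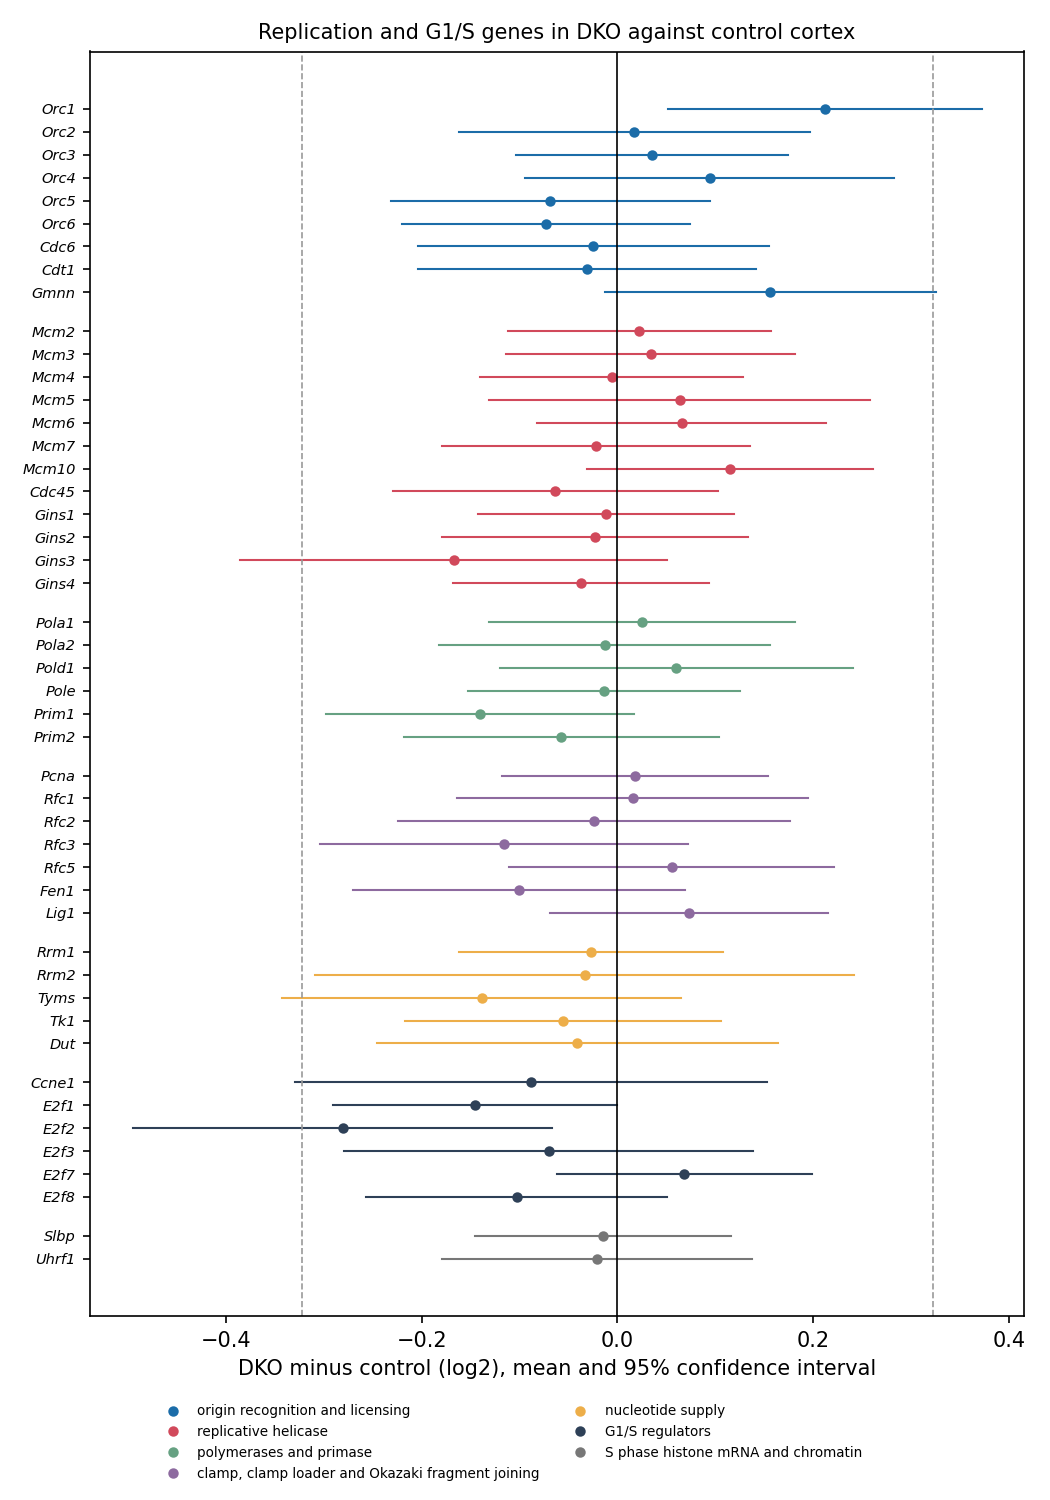
Log2 difference, DKO minus control, of each of the 47 members (point) with its 95% confidence interval (line), grouped and coloured by role from top to bottom; dashed lines mark 1.25-fold in either direction. The points lie between -0.28 and 0.21, and 44 of the 47 intervals include 0.

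**Figure D2:**
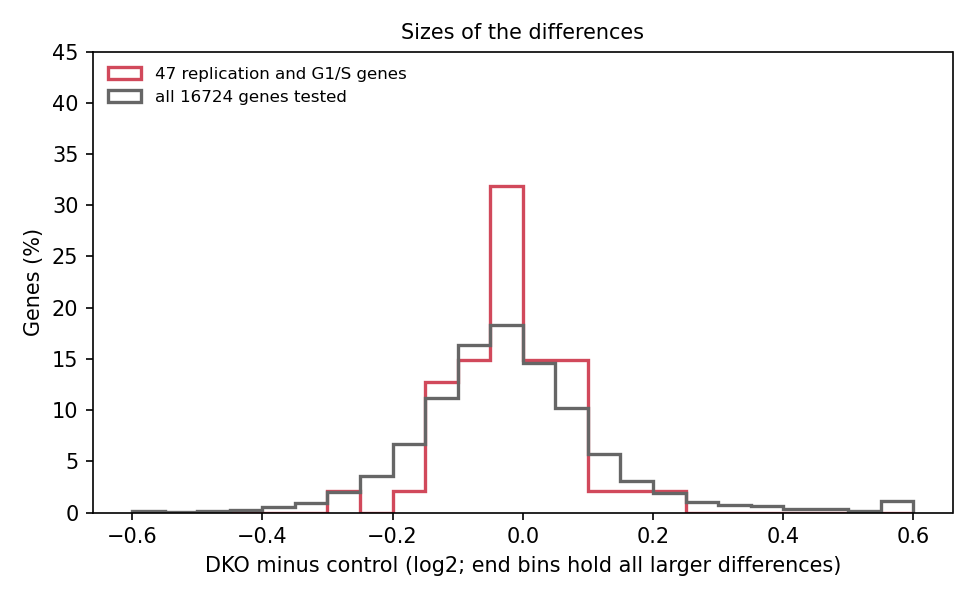
Share of genes (%) by log2 difference, DKO minus control, in bins of 0.05, for the 47 members (red) and all 16724 genes tested (grey); the end bins hold all larger differences. The members occupy the centre, between -0.28 and 0.21, and only the grey curve has genes in the end bins.

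The origin recognition and licensing genes held the member with the highest DKO difference. Orc1, the ATPase subunit of ORC that comes and goes with the cell cycle, lay at 6.90, 6.74 and 6.84 in the DKO arrays, against 6.67, 6.53 and 6.65 in the control arrays. All 3 DKO arrays stood above all control arrays, by 0.21 ± 0.070 (SE) on average, with a 95% interval of 0.051 to 0.37 and an adjusted p of 0.200. Gmnn encodes geminin, which binds Cdt1 and blocks licensing once S phase has begun. Its level was 7.07, 7.15 and 7.30 in the DKO arrays, against 7.05, 7.03 and 6.97 in the control arrays, again without overlap but with the closest arrays, DKO 1 and control 1, only just apart, for a difference of 0.16 ± 0.074 (SE) and an adjusted p of 0.361. Orc4 was at 8.73, 8.70 and 8.68 in the DKO arrays, against 8.67, 8.44 and 8.72 in the control arrays, and here the groups overlapped because control 3 matched the DKO arrays (0.094 ± 0.082 (SE)). The other ORC subunits did not share a direction: Orc2 and Orc3 differed by 0.017 and 0.035, and Orc5 and Orc6 by -0.068 and -0.073. The loading factors Cdc6 (-0.025) and Cdt1 (-0.031) lay close to 0. Over the 9 genes, 5 had a higher DKO mean and the median was 0.017.

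Differences were small across the replicative helicase. Of its 12 genes 5 had a higher DKO mean, and the median size of the difference was 0.036. The 6 subunits of the Mcm2-7 ring ranged from -0.022 (Mcm7) to 0.066 (Mcm6), with Mcm2 at 0.022, Mcm3 at 0.034, Mcm4 at -0.0056 and Mcm5 at 0.064. Mcm6, which had the smallest p of the ring, stood at 9.93, 9.89 and 10.04 in the DKO arrays, against 9.91, 9.86 and 9.89 in the control arrays, so that DKO 3 alone was clearly above the rest. Mcm10 encodes a factor that joins the helicase when origins fire. It was at 8.47, 8.36 and 8.38 in the DKO arrays, against 8.33, 8.31 and 8.23 in the control arrays. Its groups did not overlap, and the difference of 0.11 ± 0.064 (SE) had an adjusted p of 0.443. Gins3, a subunit of the GINS complex, was the helicase gene with the lowest difference, -0.17 ± 0.096 (SE) with an interval of -0.39 to 0.051. Its arrays read 8.39, 8.21 and 8.34 in the DKO arrays, against 8.44, 8.34 and 8.67 in the control arrays, where control 3 was far above the other controls and the groups overlapped. The remaining GINS subunits lay at -0.012 for Gins1, -0.023 for Gins2 and -0.038 for Gins4, and Cdc45, the third part of the active helicase, at -0.063.

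Genes of the polymerases and primase had a median difference of -0.013 over 6 genes. Prim1, the catalytic subunit of primase that lays down RNA primers, was at 8.85, 8.74 and 8.84 in the DKO arrays, against 8.91, 8.90 and 9.04 in the control arrays. All DKO arrays lay below all controls, with a difference of -0.14 ± 0.069 (SE, adjusted p 0.380). Prim2, its regulatory partner, stood at 9.63, 9.60 and 9.48 in the DKO arrays, against 9.68, 9.55 and 9.66 in the control arrays, with overlapping groups and a difference of -0.057. Pold1, the catalytic subunit of polymerase delta on the lagging strand, was at 9.01, 8.88 and 9.03 in the DKO arrays, against 8.92, 8.80 and 9.02 in the control arrays, a difference of 0.060 that ran through overlapping arrays. Pole, the leading-strand polymerase, differed by -0.014, and the polymerase alpha subunits Pola1 and Pola2 by 0.025 and -0.013. A second, dimmer row of Pole, at 5.65 in DKO and 5.44 in control cortex, gave 0.21, the other sign.

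Of the sliding clamp, its loader and the enzymes that join Okazaki fragments, 4 of 7 measured genes had a higher DKO mean, around a median of 0.015. Rfc3, a subunit of the loader replication factor C, was at 8.93, 8.88 and 9.01 in the DKO arrays, against 9.01, 8.95 and 9.21 in the control arrays, and control 3 alone was well above the DKO arrays (-0.12 ± 0.082 (SE)). Fen1, the nuclease that trims the flaps of Okazaki fragments, was at 7.75, 7.66 and 7.81 in the DKO arrays, against 7.82, 7.76 and 7.95 in the control arrays, with the same array highest and a difference of -0.10. Lig1, the ligase that seals the fragments, went the other way at 9.51, 9.38 and 9.46 in the DKO arrays, against 9.38, 9.35 and 9.39 in the control arrays, a difference of 0.073 in which DKO 2 fell among the controls. Pcna, the clamp itself and a common label of cycling cells, differed by 0.018 ± 0.060 (SE), its arrays spanning 0.10 from lowest to highest. Rfc1, Rfc2 and Rfc5 differed by 0.015, -0.024 and 0.055. A second, dimmer row of Fen1, at 6.91 in DKO and 6.94 in control cortex, gave -0.029.

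All 5 genes of nucleotide supply had a lower DKO mean, and in each of them DKO 2 was the lowest array. Tyms, thymidylate synthase, was at 9.36, 9.19 and 9.45 in the DKO arrays, against 9.59, 9.36 and 9.46 in the control arrays. DKO 3 lay among the controls and DKO 1 just below the lowest of them, and the difference was -0.14 ± 0.089 (SE) with an adjusted p of 0.514. Tk1, the S phase thymidine kinase, was at 9.45, 9.33 and 9.36 in the DKO arrays, against 9.50, 9.46 and 9.33 in the control arrays (-0.055), and Rrm1, the large subunit of ribonucleotide reductase, at 10.71, 10.63 and 10.71 in the DKO arrays, against 10.69, 10.74 and 10.71 in the control arrays (-0.028). Both sets of arrays overlapped. Rrm2, the small subunit made in S phase, had the widest error of all members, -0.033 ± 0.12 (SE), with DKO 1 at 10.58 and DKO 2 at 10.17. Dut, the dUTPase that keeps uracil out of DNA, differed by -0.041. A second, dimmer row of Dut, at 5.17 in DKO and 5.04 in control cortex, gave 0.14, the other sign. That row of Dut was close to the dim limit of 5.02. The second row of Rrm2, at 4.75 in DKO and 4.91 in control cortex, lay below that limit and gave -0.16. The median of the 5 genes was -0.041, and -0.0016 without DKO 2. Of 9 tested nucleotide supply genes outside the members, 7 had a higher DKO mean and 2 a lower one, with a median of 0.069.

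The regulators of G1/S entry had the lowest median of the roles, -0.096, and 5 of 6 measured genes had a lower DKO mean. Without DKO 2 that median was -0.059. E2f2, an activating E2F, was at 6.76, 6.54 and 6.78 in the DKO arrays, against 6.89, 6.91 and 7.13 in the control arrays. Every DKO array was below every control array, with a difference of -0.28 ± 0.094 (SE), with an interval of -0.50 to -0.067 and an adjusted p of 0.204. E2f1, the best known activating E2F, was at 8.59, 8.52 and 8.64 in the DKO arrays, against 8.69, 8.71 and 8.79 in the control arrays, also without overlap (-0.15 ± 0.064 (SE), adjusted p 0.320). E2f8, a repressive E2F of late S phase, stood at 8.50, 8.48 and 8.57 in the DKO arrays, against 8.67, 8.52 and 8.67 in the control arrays, where control 2 overlapped the DKO arrays (-0.10). E2f7, the repressor most like E2f8, was chosen after its values were seen: it lay at 8.70, 8.75 and 8.76 in the DKO arrays, against 8.67, 8.65 and 8.68 in the control arrays, all DKO arrays being higher, although by only 0.068 ± 0.057 (SE). E2f3 differed by -0.070. Ccne1, cyclin E1, which activates Cdk2 at the G1/S boundary, differed by -0.089 ± 0.11 (SE) and rested on DKO 2 at 8.08, the other DKO arrays being at 8.47 and 8.40.

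The remaining members act on S phase chromatin. Slbp, which binds the stem-loop of histone mRNAs, was at 9.23, 9.26 and 9.27 in the DKO arrays, against 9.28, 9.29 and 9.24 in the control arrays, a difference of -0.015 ± 0.057 (SE) over arrays that spanned only 0.057. Uhrf1, which recruits the maintenance DNA methyltransferase to newly copied DNA, was at 9.49, 9.34 and 9.53 in the DKO arrays, against 9.47, 9.46 and 9.50 in the control arrays, or -0.021 ± 0.069 (SE). In both the groups overlapped.

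The DKO arrays lay wholly above the controls for 4 members (Orc1, Gmnn, Mcm10 and E2f7), or 8.51%, where 8.22% of all genes tested did so. They lay wholly below for 3 (Prim1, E2f1 and E2f2), or 6.38%, against 13.4% of all genes. The first share is near that of all genes and the second is below it. For a single gene the exact two-sided permutation test over 3 against 3 arrays gives 0.1 as its smallest p, which these 7 genes reached.

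**Figure D3:**
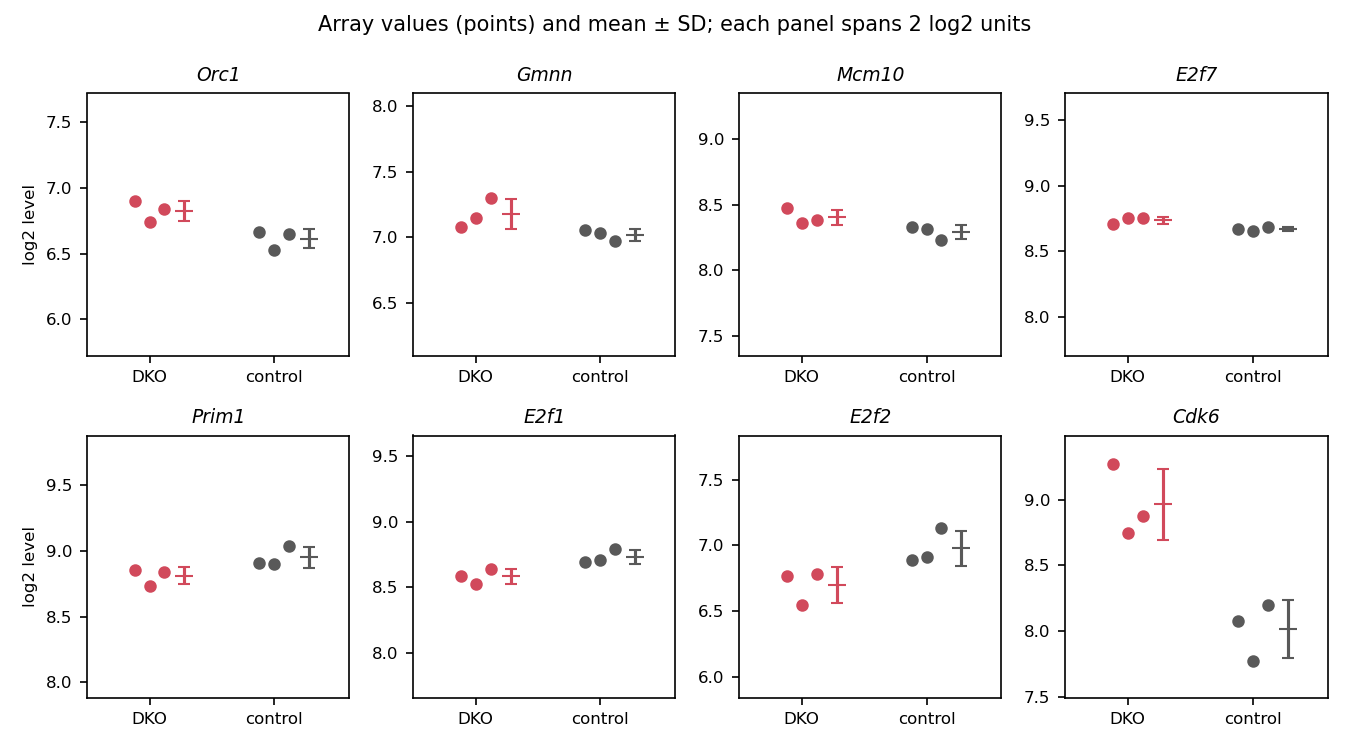
Array values on a log2 scale (points, the 3 arrays of a group side by side) with mean ± SD (bars) for the 7 members whose groups did not overlap and for Cdk6, DKO left and control right; every panel spans 2 log2 units. The separations of the members are at most 0.28 between means, that of Cdk6 is 0.95.

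Among the embryos, DKO 2 stood lowest for many members. That array was lowest for 27 of the 47 members (57.4%) and the highest for none, whereas it was lowest for 25.2% and highest for 10.2% of all genes tested. In related lists DKO 2 was lowest for 10 of 27 mitosis genes (37.0%), with a median deviation of -0.074, and for 28 of 71 other replication and G1/S genes (39.4%), with -0.044. The median member stood -0.080 from its gene mean in DKO 2, but 0.013 and 0.028 in DKO 1 and DKO 3, against 0.012, -0.034 and 0.029 in control 1, 2 and 3. Over all members the other DKO arrays thus sat within the range of the controls, but not in every role. For the G1/S regulators DKO 1 and DKO 3 stood at -0.033 and -0.0092, below the lowest control at 0.0032. For the helicase they stood at 0.021 and 0.029, above the highest control at 0.019. By role the deviation of DKO 2 was -0.069 for licensing, -0.031 for the helicase and -0.069 for polymerases and primase. It was -0.12 for clamp, loader and joining, -0.12 for the G1/S regulators and -0.18 for nucleotide supply. Over all genes tested it was -0.031, near the helicase value and the lowest of the 6 arrays. Over the 6 arrays the median Pearson correlation between pairs of members was 0.32, against 0.090 between a member and another tested gene. With the group means removed it was 0.41 between members, and no such value was computed for members with other genes. These are descriptions over 6 points that share the same libraries.

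DKO 2 was also low in markers of cells outside the neural lineage. Its median deviation was -0.43 over 12 endothelial and pericyte markers, -0.32 over 8 microglia and macrophage markers, -0.26 over 7 erythroid markers and -0.59 over 10 meningeal and mesenchymal markers. Summed endothelial and pericyte levels were 10.73 in DKO 2, against 11.22 to 11.46 (log2) in the other arrays. The part of these cells in the member values was not tested.

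**Figure D4:**
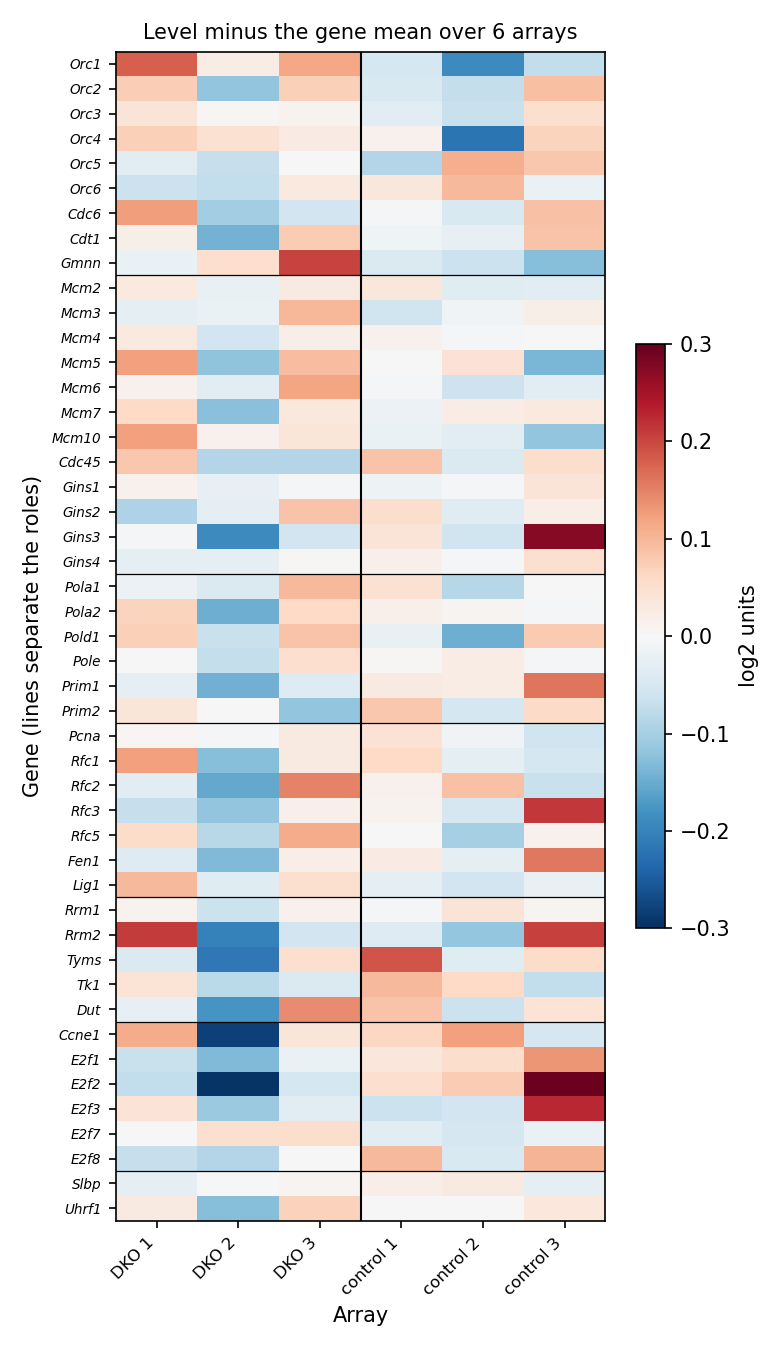
Level of each member (rows, in order of role) in each array (columns, DKO left of the line, control right) minus the mean of the gene over the 6 arrays, in log2 units; red is above and blue below the gene mean. The DKO 2 column is blue for most members, with a median of -0.080.

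**Figure D5:**
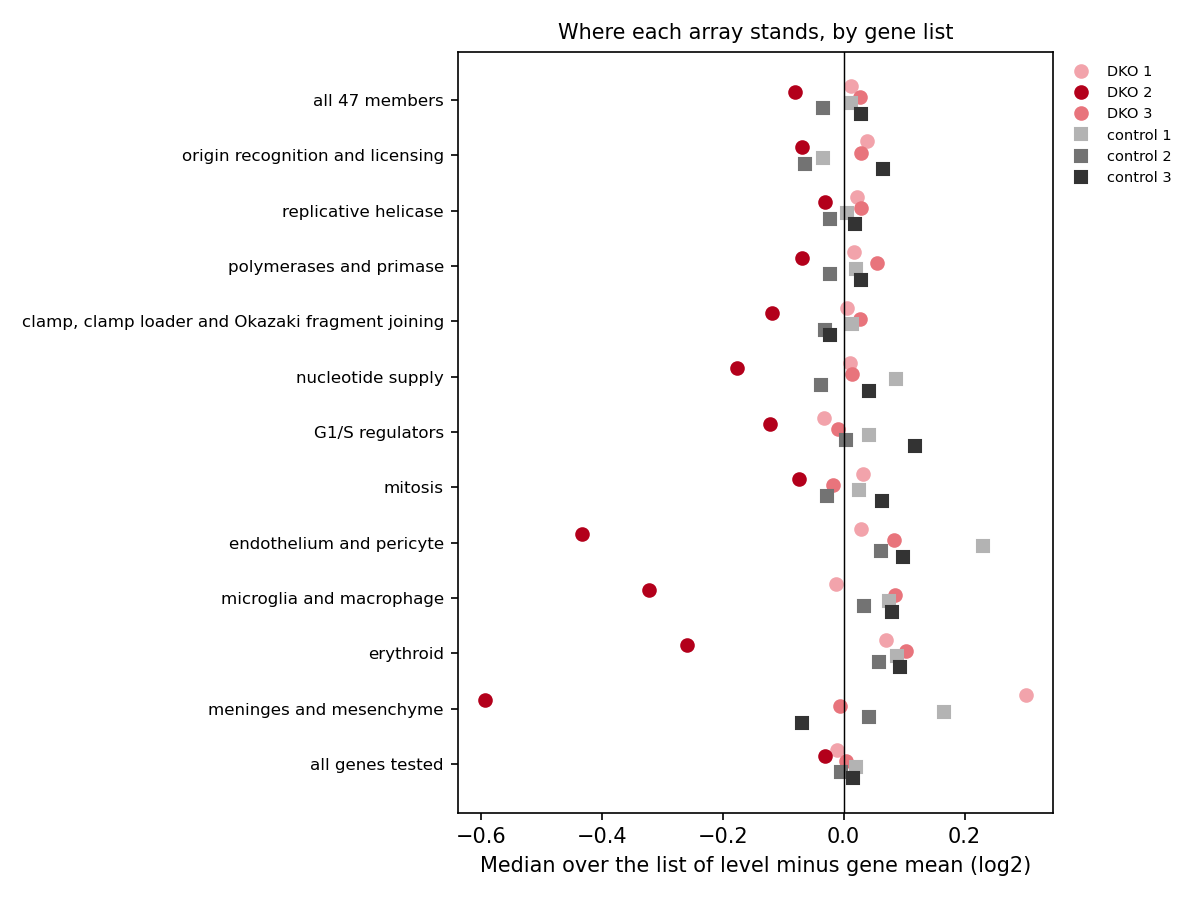
Median, over the genes of a list, of the level minus the gene mean (log2) in each array, for the members, 6 of their role groups, mitosis genes, 4 marker lists and all genes tested; circles are DKO and squares control arrays, set slightly apart in height. DKO 2 is lowest over all 47 members (-0.080) and farther out in the marker lists. It is also lowest over all genes tested (-0.031).

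Differences were also computed within each sex. Among male embryos (DKO 1 and 2, against control 2) the median difference over the members was -0.023, and among female embryos (DKO 3, against control 1 and 3) it was 0.023. Orc1 differed by 0.29 in males and 0.18 in females, E2f2 by -0.26 and -0.23, and E2f1 by -0.15 and -0.10. The groups of these 3 genes did not overlap, so the sign within each sex was fixed in advance. Each of these strata has a group of 1 array and allows no test of its own. With sex as a covariate in the fit over all genes, a setting added after the data were seen, 0 members passed and the median was -0.0028.

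Beyond the members, 1 of 71 other tested genes of replication and G1/S control rose and 0 fell. That is near the shares over all genes tested, of which 1.36% rose and 0.359% fell. Of the 14 other initiation factors, 20 polymerase and fork factors, 9 nucleotide supply genes and 10 S phase chromatin genes none passed, and of 18 G1/S regulators 1 did. That gene was Cdk6, the kinase that with D-type cyclins phosphorylates the retinoblastoma protein in G1. It stood at 9.27, 8.75 and 8.88 in the DKO arrays, against 8.08, 7.77 and 8.20 in the control arrays, which is 1.93-fold higher (0.95 ± 0.15 (SE), adjusted p 0.0189) and without overlap. Its call was lost without DKO 3, control 1 or control 2, at adjusted p of 0.0631, 0.0597 and 0.0552, while the difference stayed between 0.80 and 1.06. Ccnd3, the D-type cyclin D3, was at 8.96, 8.57 and 8.66 in the DKO arrays, against 8.35, 8.38 and 8.23 in the control arrays, all DKO arrays being higher (0.41 ± 0.10 (SE), adjusted p 0.105). Ccnd1 and Ccnd2, the other D-type cyclins, named after their values were seen, differed by 0.12 ± 0.078 (SE) and -0.085 ± 0.061 (SE), and the sister kinase Cdk4 by -0.045. Differences between the cyclins were not tested.

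The genes with the smallest p in each of the other lists did not pass the test. Ticrr, which brings Cdc45 to origins, had 8.36, 8.17 and 8.34 in DKO and 8.63, 8.46 and 8.64 in control arrays (-0.29 ± 0.080 (SE), adjusted p 0.137). Mcm9, an Mcm-like helicase of repair, had 6.27, 6.27 and 6.24 in DKO and 5.91, 6.06 and 6.06 in control arrays (0.25 ± 0.066 (SE), adjusted p 0.124). The groups were apart in both genes, in opposite directions. Cdkn1a, the inhibitor p21, named after its values were seen, differed by 0.55 ± 0.16 (SE) (adjusted p 0.139), with all DKO arrays higher. Samhd1, which breaks down deoxynucleotides, differed by 0.20 ± 0.073 (SE), and Dctd, deoxycytidylate deaminase, by 0.099 ± 0.068 (SE). Dscc1, of an alternative clamp loader, and Pole4, an accessory subunit of polymerase epsilon, differed by -0.13 and 0.13, and the histone chaperones Asf1b and Chaf1a by -0.10 and -0.099. Over the 71 genes the median was -0.0088 and the median size 0.062, beside -0.022 and 0.055 over the members. Of 27 mitosis genes 0 rose and 0 fell, with a median of -0.029 and a median size of 0.064. At an unadjusted p under 0.05 in limma there were 2 (7.41%), where 15.6% of all genes lay.

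Members with and without an E2F word in the promoter window were set side by side, as a description. Of the 17 measured members with a word, 9 had a higher DKO mean, the median was 0.025, and both extremes, Orc1 and E2f2, were among them. Of the 22 with a window but no word, 7 had a higher DKO mean and the median was -0.037. Among all genes tested, 517 had a word, of which 6 rose and 2 fell, or 1.55%, beside 1.72% of all genes tested. Genes with the TEAD word numbered 1912, of which 42 rose and 2 fell (2.30%). No test was made of these shares.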

How the data were processed

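Each of the 6 samples was 1 cortex on 1 array. The deposited values are log2 levels made by RMA, per the submitters' processing notes, and the sources used here name no version or software for it. RMA subtracts background, equalises probe signals across arrays by quantiles and summarises them per row. Per the labels' protocols, RNA was extracted with Trizol and sense cDNA was biotin-labelled. Scanner files were not used here. Rows were named from the platform annotation: 23521 of 41345 had 1 symbol, and 1814 with several and 16010 without one were left out. The row with the highest mean was used per gene, and genes below the 25th percentile of one-symbol rows were left out (5456 of 22180). DKO was compared with control by limma 3.58.1 in R 4.3.3 (lmFit, eBayes, two-sided, Benjamini-Hochberg over 16724 genes, called under 0.05). The members and lists were chosen with earlier results of these data known. Values of every array are given for the 3 members of each role with the smallest p and the 5 with the largest difference, and values of the other pathway genes for those past the test and the 2 of each list with the smallest p. The number of arrays limits the precision. Equal replicate numbers in the labels were not tied to litters, so they were not used to pair samples. The deviations of same-numbered arrays correlated at -0.10, 0.21 and 0.15. Embryo sex was the same within numbers 2 and 3 but not within number 1, so these correlations cannot show or exclude a pairing. Scripts were tested on simulated data. Other settings varied the dim limit, scaling, row choice, variance model, array weights, block, threshold and samples.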

Additional observations from a re-analysis of the deposited data

How the results depend on the processing

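No member passed the limma test under any of the 17 alternative settings, and the smallest adjusted p of a member was 0.136, for Orc1 with the dim limit at the median. Of the 47 members 27 kept the sign of their difference under all of these settings and 20 did not, none of which was larger than 0.089 in size. Leaving out DKO 2 turned the median over the members to 0.029 and the count with a higher DKO mean to 28. When 1 array was left out, the median lay between -0.038 and 0.029, the count with a higher DKO mean between 14 and 28, and the helicase median between -0.014 and 0.028. Over all genes these fits gave 121 to 260 increases and 11 to 54 decreases. Decreases numbered 134 with the stricter dim limit, 162 with a trended variance, 123 with array weights and 26 with embryo sex as a covariate. At an adjusted p under 0.1 there were 365 increases and 201 decreases, with 0 members among them. The replicate block, a pairing that the labels do not state and the data cannot settle, gave 176 increases, 24 decreases and 0 members. The cause of these shifts was not tested. An interaction of genotype with sex, added after the data were seen and left with 2 residual degrees of freedom, called 0 of 16724 genes in limma, with 747 at an unadjusted p under 0.05 and 0 members among them. Averaging the rows of a gene moved Pole to 0.097 and Dut to 0.048. Small differences are limited by 3 arrays a group, and levels near the dim limit cannot be told from background because no detection call was used.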
